A study of Mus musculus with 4 samples.

Results

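Expression of 8 tendon and ligament genes was examined in RNA from hip and knee articular cartilage of mice. The genes were chosen by name as Scx, Tnmd, Mkx, Thbs4, Kera, Tnc, Col12a1 and Col14a1, out of 50686 gene identifiers in the hip count table and 54838 in the knee count table. All 8 were found in both tables. There were 4 poly-A libraries, 1 per condition and joint.

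The hip control came from Cbfb f/f mice, whose treatment is labelled None and which carried no Cre. The other hip library came from Cbfb f/f;Col2a1-CreERT mice injected with tamoxifen (TMX). For the knee, both libraries came from Cbfb f/f;Aggrecan-CreERT mice, and the control received oil while the other received TMX. By these labels all mice carried the floxed Cbfb allele, although the study's main text calls the hip controls wild type, and TMX was given to activate a Cre driven by regulatory sequence of a cartilage matrix gene. The figure legends of the study describe male mice, of 6 weeks for the hip and 12 weeks for the knee, while its main text gives an age of 2 months for the hip. By its methods TMX was injected on 5 consecutive days from 2 weeks of age in the Col2a1 line and from 8 weeks in the Acan line, and a legend gives 6 weeks for the latter. The same methods list Cbfb f/f mice among those given TMX or corn oil, whereas the treatment of the hip control is labelled None. The study's statistics section gives a general group size of 5 mice per experiment, and whether animals were pooled for a library is not given in the sources used here. With 1 library per condition there is no replicate error and no test, so each comparison is between 2 libraries and every interval covers counting error only.

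Tendons and ligaments are dense bands of type I collagen fibrils laid down by elongated fibroblasts, the tenocytes and ligament cells. Scx and Mkx encode transcription factors that set up and maintain these cells, Tnmd encodes a membrane glycoprotein of mature tenocytes, and the remaining genes encode proteins of the matrix around the fibrils. Several of these genes are also used outside tendon: Thbs4 around skeletal muscle, Kera in the cornea, and Tnc, Col12a1 and Col14a1 in many connective tissues.

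The tissue label was checked first. Col2a1, the main collagen of hyaline cartilage, had 9.20 CPM (its counts per 1000000 counts on genes of the library) in the hip control and 6.59 CPM in the hip library labelled Cbfb-deficient, against 2550 and 869 CPM in the knee libraries. An 18-gene skeletal muscle list took 19.8% and 20.8% of the counts of the hip libraries, and 1.31% and 2.97% of those of the knee, control first. The hip libraries were therefore largely without cartilage collagen RNA and rich in muscle RNA. The extraction text in the labels of this series names osteoblasts as the source of RNA, while titles name articular cartilage, so the cells behind the libraries are not settled by the labels. The study's discussion describes the hip samples as articular cartilage alone and the knee samples as articular cartilage with bone. The libraries are called by their titles below. Hip counts of the targeted gene Cbfb were 2548 in the control and 2946 in the other library, with a log2 ratio of 0.41 under the scaling described below, or -0.21 once adjusted for transcript length and GC content. Its knee counts were 3796 and 4572, with a ratio of -0.07. Counts per gene cannot show whether an exon was deleted. In such bulk RNA, fewer cells of a type and less RNA per cell cannot be told apart.

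In the hip control, the 8 genes together had 293 CPM, and in the hip library labelled Cbfb-deficient they had 128 CPM. In the knee they had 558 CPM in the control and 734 CPM in the library labelled Cbfb-deficient. The hip and knee tables list different sets of gene identifiers, and only those of the hip carry the summary lines of a counting program, so levels are set side by side across joints and no ratio between joints is read from them. Orders of the 4 libraries and the search for similar genes below also carry any difference in counting between the joints.

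**Figure D1:**
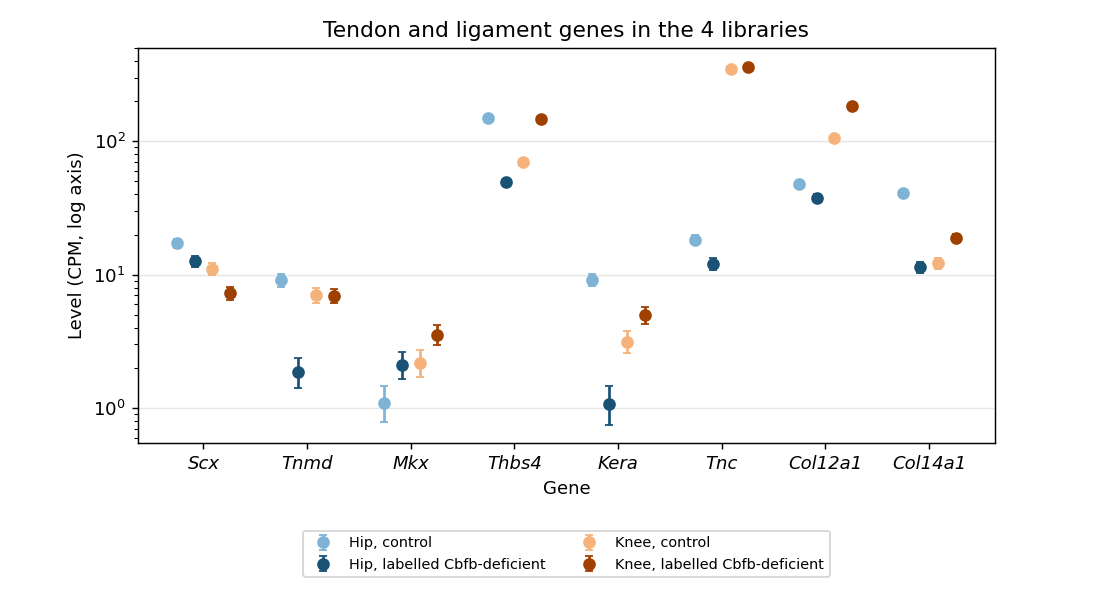
Level of each gene in CPM (log axis) in the 4 libraries, with exact Poisson 95% intervals for counting error. Tnmd, Thbs4, Kera, Tnc, Col12a1 and Col14a1 sit lowest in the hip library labelled Cbfb-deficient, while the 2 knee points of Tnc lie far above the 2 hip points.

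Per kilobase (kb) of annotated exon, Thbs4 was the highest of the 8 genes in the hip control, at 40.4 CPM per kb. It was followed there by Scx (6.34), Tnmd (6.20) and Col14a1 (5.86), neighbours whose counting intervals overlapped, then by Kera (3.40) and Col12a1 (3.11), which also overlapped. Tnc had 2.30 and Mkx 0.112 CPM per kb. In the knee control the order was another, led by Tnc at 43.5 CPM per kb, ahead of Thbs4 at 19.0 and Col12a1 at 6.88. Tnmd (4.78) and Scx (4.09) overlapped in the knee control, and Col14a1 (1.73), Kera (1.17) and Mkx (0.224) were lowest.

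The makeup of the summed counts changed with these orders. Thbs4 supplied 50.9% of the counts of the 8 genes in the hip control (exact binomial 95% interval 49.996 to 51.9%), but 12.5% in the knee control. Tnc supplied 6.26% in the hip control and 62.2% in the knee control. In the hip library labelled Cbfb-deficient, Col12a1 rose in share from 16.3% to 29.5%. In the knee library labelled Cbfb-deficient, Thbs4 took 20.001% and Tnc 49.3%.

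**Figure D2:**
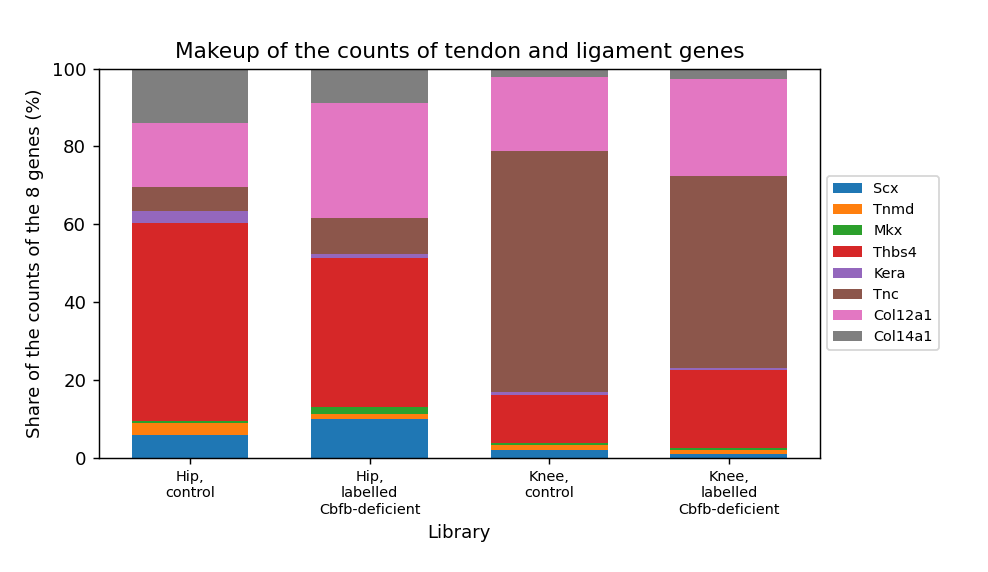
Share of each gene in the summed counts of the 8 genes, in percent, for each library (bars add to 100%). Thbs4 is the largest block in both hip libraries and Tnc in both knee libraries, with 62.2% in the knee control.

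Within each joint the control was the denominator of the log2 ratio, which was taken after edgeR's TMM scaling with 0.5 added to each count. A gene was called higher or lower when its counts in the pair summed to 10 or more, its ratio was 2-fold or more, and its 95% Clopper-Pearson interval excluded 0. In the hip pair 4 of the 8 genes were called lower and 0 higher, where 16.3% of 19856 genes over all were called lower and 20.2% higher. Read by the interval alone, 7 genes were lower and 1 higher, against 33.7% and 37.3% of all genes. The median log2 ratio of the 8 genes was -1.05, and that of all genes 0.01. The 4 genes called lower were Kera, Tnmd, Col14a1 and Thbs4. In the knee pair 0 of 8 were called lower and 0 higher, where the share of 21131 genes was 6.81% and 9.00%. By the interval alone 2 were lower and 5 higher in the knee, against 29.7% and 31.9% of all genes, and the median of the 8 was 0.46 beside 0.02 for all genes.

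**Figure D3:**
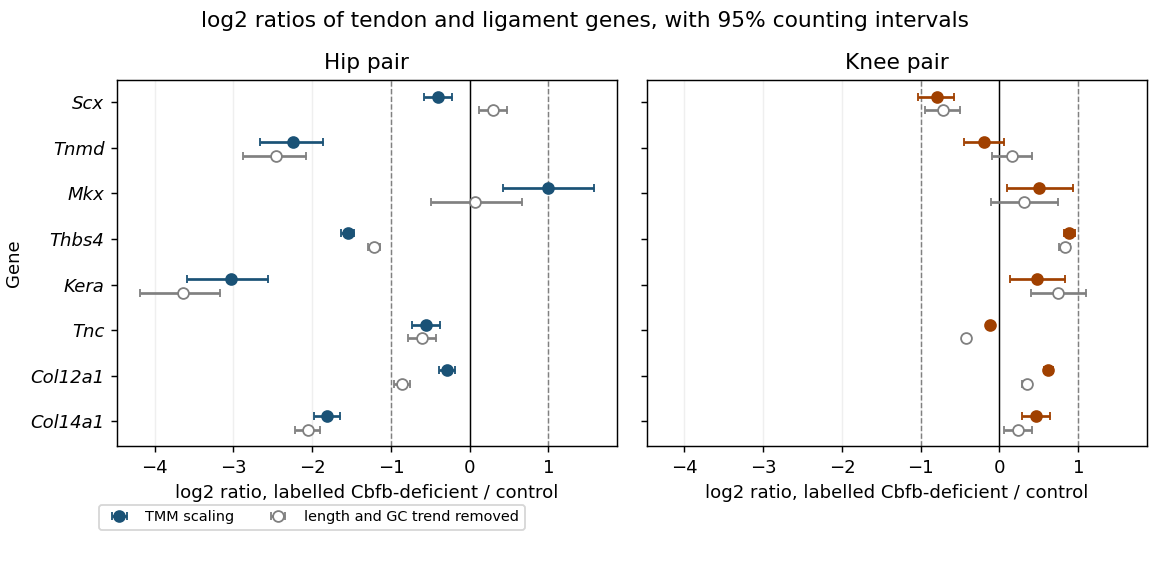
log2 ratio of each gene against the control of the same joint in the hip pair and the knee pair, with 95% counting intervals (filled, TMM scaling; open, adjusted for length and GC content of the transcript). In the hip pair Kera, Tnmd, Col14a1 and Thbs4 lie below -1 under both, and Scx changes sign from -0.41 to 0.29; in the knee pair Tnmd changes sign from -0.20 to 0.16 with both intervals spanning 0.

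Scx encodes scleraxis, the basic helix-loop-helix factor that marks tendon progenitors and binds E-boxes. Scx (ENSMUSG00000034161, chromosome 15 of GRCm39, 76341563 to 76344281, plus strand) lies within the span of Bop1 on the other strand, with no shared exon bases. It had 663 counts (17.2 CPM) in the hip control and 436 (12.6 CPM) in the hip library labelled Cbfb-deficient. In the knee it had 381 counts (11.1 CPM) in the control and 277 (7.25 CPM) in the library labelled Cbfb-deficient. Scx was thus lower in the library labelled Cbfb-deficient in both joints before adjustment for transcript length and GC content. The knee ratio was -0.80 on the log2 scale (95% counting interval -1.03 to -0.57), and it was between -0.90 and -0.62 under every alternative run. The hip ratio was -0.41 (95% counting interval -0.58 to -0.23), but it was 0.29 after adjustment for transcript length and GC content and 0.61 when ratios were shifted to bring the median of 12 general fibroblast genes to 0. The Scx transcript has a GC content of 61.3%, the highest of the 8.

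Mkx encodes Mohawk, an atypical homeodomain factor that maintains type I collagen production in tendon. Mkx (ENSMUSG00000061013, chromosome 18, 6931133 to 7005516, minus strand) had 42 counts (1.09 CPM) in the hip control and 73 (2.11 CPM) in the library labelled Cbfb-deficient. The knee values were 75 counts (2.19 CPM) and 135 counts (3.53 CPM). Mkx was the lowest of the 8 genes per kb in all 4 libraries and the only one of them whose interval lay above 0 in both pairs. Its log2 ratio was 0.99 in the hip (95% counting interval 0.43 to 1.58) and 0.50 in the knee (0.09 to 0.94). Adjusted for length and GC content, these were 0.07 (-0.49 to 0.66) and 0.31 (-0.11 to 0.74), and a difference was then not detectable at this depth. Per kb and unadjusted, Scx exceeded Mkx 56.7-fold in the hip control (95% counting interval 41.5 to 79.5) and 21.5-fold (16.7 to 27.9) in the hip library labelled Cbfb-deficient. In the knee this ratio was 18.3 (14.2 to 23.7) in the control and 7.37 (5.98 to 9.13) in the library labelled Cbfb-deficient. The intervals of the hip library labelled Cbfb-deficient and the knee control overlapped. The lower proportion in the hip pair was not kept after adjustment for length and GC content, where Scx was at 0.29 and Mkx at 0.07 on the log2 scale.

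Tnmd encodes tenomodulin, which is needed for normal tenocyte growth and fibril maturation and is the usual marker of differentiated tendon. Tnmd (ENSMUSG00000031250, chromosome X, 132751720 to 132766326, plus strand) had 349 counts (9.07 CPM) in the hip control and 64 (1.85 CPM) in the hip library labelled Cbfb-deficient. The knee libraries had 240 (7.004 CPM) and 265 counts (6.93 CPM). Of the 4 libraries, the hip library labelled Cbfb-deficient alone stood apart, and the other 3 lay between 6.93 and 9.07 CPM. The hip log2 ratio was -2.24 (95% counting interval -2.66 to -1.86), and -2.46 after the same adjustment. The knee ratio was -0.20 (-0.45 to 0.06), and 0.16 when adjusted. Set against Scx within a library, Tnmd per kb was 0.978 times Scx in the hip control and 0.273 times in the library labelled Cbfb-deficient, with 95% counting intervals of 0.856 to 1.12 and 0.206 to 0.355. In the knee the same ratio was 1.17 in the control and 1.78 in the library labelled Cbfb-deficient.

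The regions before the start of transcription are shown for Tnmd, Kera and Thbs4, since these 3 genes were called lower together in the hip and have entries in RefSeq's promoter set. Of the 8 genes, 4 matched that set (Tnc is the other). Each run is the 250 bases before the start, 5′ to 3′ on the gene's own strand (RefSeq, build GRCm38.p6), at chrX:133850758-133851007 on the plus strand for Tnmd, chr10:97606955-97607204 on the plus strand for Kera and chr13:92794819-92795068 on the minus strand for Thbs4. Capitals mark the E-box letters CANNTG, which read the same on both strands.

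Tnmd: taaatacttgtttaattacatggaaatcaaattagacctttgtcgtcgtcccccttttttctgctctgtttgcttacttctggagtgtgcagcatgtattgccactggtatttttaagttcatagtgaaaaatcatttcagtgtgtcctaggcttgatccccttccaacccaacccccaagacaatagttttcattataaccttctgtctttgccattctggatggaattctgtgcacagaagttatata
Kera: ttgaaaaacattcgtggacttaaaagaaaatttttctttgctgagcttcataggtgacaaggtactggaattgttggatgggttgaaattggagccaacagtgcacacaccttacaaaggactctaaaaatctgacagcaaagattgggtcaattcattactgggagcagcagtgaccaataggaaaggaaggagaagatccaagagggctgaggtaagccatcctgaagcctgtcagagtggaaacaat
Thbs4: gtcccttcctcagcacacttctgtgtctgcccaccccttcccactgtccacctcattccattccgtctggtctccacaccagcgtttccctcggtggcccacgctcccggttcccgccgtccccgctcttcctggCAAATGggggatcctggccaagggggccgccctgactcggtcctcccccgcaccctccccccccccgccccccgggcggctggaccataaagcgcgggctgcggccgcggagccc

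Neither the Tnmd nor the Kera window holds CANNTG, the Thbs4 window holds it once, as CAAATG beginning 115 bases before the start, and 66.2% of all 32851 RefSeq windows of this length hold it at least once. The 2 overlapping Tnc windows, for 2 annotated starts, hold it 2 and 3 times. The letters TGTGGT, the core bound by Runx factors, the DNA-binding partners of Cbfb, were searched on both strands as well. They are in none of the windows of these 4 genes and in 14.05% of all windows. The windows differ in base composition, from a GC content of 38.4% for Tnmd to 70.8% for Thbs4. A match of letters is a description of the sequence and not a binding site.

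Kera encodes keratocan, a small leucine-rich proteoglycan that spaces collagen fibrils. Kera (ENSMUSG00000019932, chromosome 10, 97442728 to 97449554, plus strand) had 352 counts (9.15 CPM) in the hip control and 37 (1.07 CPM) in the library labelled Cbfb-deficient. It had 108 (3.15 CPM) and 190 counts (4.97 CPM) in the knee. This was the largest fall of the 8 genes in the hip, at -3.03 on the log2 scale (95% counting interval -3.58 to -2.56), whereas the knee ratio was 0.47 (0.13 to 0.83). Across the alternatives run the hip ratio lay between -3.64 and -2.02 and the knee ratio between 0.37 and 0.74. Its relative lumican, encoded by Lum, was also called lower in the hip, with a log2 ratio of -1.06, but per kb Kera went from 0.455 times Lum (95% counting interval 0.405 to 0.510) to 0.114 times (0.080 to 0.159). In the knee, Kera was 0.026 times Lum in the control and 0.051 times in the library labelled Cbfb-deficient.

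Thbs4 encodes thrombospondin 4, a pentameric matrix glycoprotein of tendon and of the junction between tendon and muscle. Thbs4 (ENSMUSG00000021702, chromosome 13, 92888095 to 92931501, minus strand) had 5733 counts (149 CPM) in the hip control and 1708 (49.4 CPM) in the library labelled Cbfb-deficient. Its knee counts were 2397 (69.96 CPM) and 5609 (147 CPM). The hip control and the knee library labelled Cbfb-deficient were thus at nearly the same level, with the other 2 libraries below them. The log2 ratio was -1.55 in the hip (95% counting interval -1.63 to -1.47) and 0.89 in the knee (0.82 to 0.96). The knee ratio passed 2-fold, at 1.07, when libraries were scaled by their total counts alone. Comp, a close relative of Thbs4 in cartilage and tendon, had a log2 ratio of -1.68 in the hip and of 0.06 in the knee. Adjusted for length and GC content the hip ratio of Comp was -0.97, short of 2-fold, and that of Thbs4 -1.22. Thbs4 per kb was 0.983 times Comp in the hip control and 1.07 times in the hip library labelled Cbfb-deficient, and their intervals overlapped (0.946 to 1.02 and 0.998 to 1.16). In the knee it was 0.088 times Comp in the control and 0.156 times in the library labelled Cbfb-deficient.

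Tnc encodes tenascin C, a hexameric glycoprotein of tendon, of the bone surface and of healing tissue. Tnc (ENSMUSG00000028364, chromosome 4, 63878014 to 63965443, minus strand) had 705 counts (18.3 CPM) in the hip control and 417 (12.1 CPM) in the library labelled Cbfb-deficient. Its knee counts were 11892 (347 CPM) and 13828 (362 CPM). Tnc was the highest of the 8 genes per kb in both knee libraries, and below Thbs4, Scx and Col12a1 in both hip libraries. The hip log2 ratio was -0.56 (95% counting interval -0.74 to -0.38), and 0.46 with the fibroblast list set to 0. The knee ratio was -0.12 (-0.16 to -0.09) under TMM and 0.06 with scaling by total counts. Tnn, which encodes tenascin W, was called lower in the hip with a log2 ratio of -1.91, and its knee ratio was 0.97. Tnxb, which encodes tenascin X, had a hip ratio of -0.40 and was called higher in the knee at 1.21, a call that ended at 0.87 when adjusted for length and GC content.

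Col12a1 and Col14a1 encode collagens XII and XIV, which bind the surface of type I collagen fibrils and link them to the surrounding matrix. Col12a1 (ENSMUSG00000032332, chromosome 9, 79506268 to 79626135, minus strand) had 1832 counts (47.6 CPM) in the hip control, 1308 (37.8 CPM) in the hip library labelled Cbfb-deficient, 3608 (105 CPM) in the knee control and 7017 (184 CPM) in the knee library labelled Cbfb-deficient. Col14a1 (ENSMUSG00000022371, chromosome 15, 55171140 to 55384199, plus strand) had 1582 (41.1 CPM), 393 (11.4 CPM), 416 (12.1 CPM) and 723 counts (18.9 CPM) in the same order. The hip control was the highest library for Col14a1, and both knee libraries were higher than both hip libraries for Col12a1. The hip ratio of Col12a1 was -0.29 on the log2 scale (95% counting interval -0.39 to -0.19), or -0.86 adjusted for length and GC content and 0.73 with the fibroblast list set to 0. The hip ratio of Col14a1 was -1.81 (-1.97 to -1.65). These related collagens thus parted in the hip: per kb, Col12a1 was 0.531 times Col14a1 in the control (95% counting interval 0.496 to 0.568) and 1.53 times in the library labelled Cbfb-deficient (1.36 to 1.71). Knee ratios of both were positive on the log2 scale, 0.62 (0.56 to 0.68) for Col12a1 and 0.46 (0.28 to 0.64) for Col14a1, and the ratio between them was 3.98 in the control (3.59 to 4.41) and 4.45 in the library labelled Cbfb-deficient (4.12 to 4.81).

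Relatives of the 8 genes in the same protein families were read from a list of 21, of which 19 reached 10 counts over the hip pair and 19, not all the same genes, over the knee pair. In the hip 9 were called lower and 1 higher, beside 16.3% and 20.2% of all genes, with a median log2 ratio of -0.59. In the knee 3 were called lower and 4 higher, beside 6.81% and 9.00% of all genes, with a median of 0.06. Chondromodulin, the cartilage relative of tenomodulin encoded by Cnmd, had hip counts of 29 and 21 and knee counts of 5123 and 1754, and in the latter pair it was called lower with a log2 ratio of -1.89. Per kb, Tnmd was 15.3 times Cnmd in the hip control and 3.87 times in the hip library labelled Cbfb-deficient (95% counting intervals 10.4 to 23.1 and 2.33 to 6.67). In the knee control it was 0.059 times Cnmd, and in the knee library labelled Cbfb-deficient 0.192 times. Tcf15, a basic helix-loop-helix relative of Scx, had log2 ratios of -0.36 in the hip and 0.27 in the knee, and the hip value was 0.38 when adjusted for length and GC content. The Iroquois genes Irx3 and Irx5, relatives of Mkx, were called lower in the hip at -1.12 and -1.41. Both calls ended after adjustment for length and GC content, at -0.39 and -0.77, where Mkx was at 0.07. In the knee Irx3 had 0.05 and Irx5 -0.47. Among leucine-rich proteoglycans, Fmod was called lower in the hip at -2.48 and Prelp at -1.34, and their knee ratios were -0.13 and -0.11. Ogn, which encodes osteoglycin, was called higher in the knee at 1.66, and Epyc, which encodes the growth plate proteoglycan epiphycan, was called lower there with 236 and 35 counts and a log2 ratio of -3.08. In the hip Epyc had 2 and 3 counts.

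Among relatives of collagens XII and XIV, Col9a1, a chain of the cartilage collagen IX, was called lower in both joints, with log2 ratios of -1.63 in the hip and -4.04 in the knee. Col16a1 was called lower in the hip at -1.42. Col20a1 was the relative called higher in the hip, with 113 and 473 counts and a ratio of 2.26, and its knee call at 1.02 ended at 0.81 when adjusted for length and GC content. Col19a1 had 19 and 12 hip counts, with knee counts of 4 and 5. Of the thrombospondins, Thbs1 had ratios of 0.48 in either joint and Thbs2 of -0.59 in the hip and 0.65 in the knee. Thbs3 had -0.23 in the hip, which was 0.12 when adjusted, and -0.94 in the knee. Tnr, a tenascin of the nervous system, had 11 and 9 hip counts, and it was called higher in the knee with counts of 0 and 12.

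Other genes of tendon were read from 3 lists. Comp, Lum, Fmod and Prelp stand in the matrix list as well as among the relatives above. All of them were called lower in the hip and are counted in both. Collagen fibril and matrix genes of tendon numbered 24, of which 16 were called lower in the hip and 1, Lox, higher, where the shares of all genes were 16.3% and 20.2%. Their median log2 ratio was -1.30. Fmod, which encodes the fibril proteoglycan fibromodulin, went from 11027 to 1725 counts, and Col1a1, the main chain of type I collagen, from 29148 to 5430, a ratio of -2.23 on the log2 scale (95% counting interval -2.27 to -2.18). Lox, which encodes the enzyme that cross-links collagen, had 242 and 516 counts and a ratio of 1.29, which fell short of 2-fold, at 0.72, when adjusted for length and GC content. In the knee 1 matrix gene was called higher, Cilp at 1.22, and 2 were called lower, Col1a1 at -1.06 and Col1a2 at -1.32, counts near or below the shares of all genes (9.00% and 6.81%), with a median of 0.19 over the 24. The call of Col1a1 ended with scaling by total counts, which added 0.18 to all knee ratios. Chad, which encodes the cartilage and tendon matrix protein chondroadherin, had a knee ratio of 0.69. Type I collagen genes were therefore lower in both libraries labelled Cbfb-deficient, while Thbs4, Kera, Col12a1 and Col14a1 were lower in the hip pair and higher in the knee pair by their counting intervals.

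Of 14 regulators of tendon development, 13 had at least 10 counts over the hip pair, and 2 of them were called higher and 0 lower, where 20.2% and 16.3% of all genes were. Eya1, a transcription coactivator, had 354 and 828 counts and a log2 ratio of 1.42, and Egr1, named here after its value was seen, had one of 1.24. In the knee 4 regulators were called higher and 2 lower, where 9.00% and 6.81% of all genes were. These were Eya2 (1.42), Gli1 (1.10), Egr2 and Gdf5 on the higher side, and Gdf6 (-3.42) and Sox9 on the lower, of which Egr2, Gdf5 and Sox9 were named after their values were seen. The call of Gli1 ended at 0.98 when adjusted for length and GC content. Gdf6, a ligand of the bone morphogenetic protein family active at joints and tendons, had 469 counts in the knee control and 55 in the library labelled Cbfb-deficient. Tgfb3, a ligand that supports Scx expression in the embryo, had ratios of -0.79 in the hip and 0.18 in the knee.

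Of 10 other tendon cell markers, 5 were called lower and 1 higher in the hip, with a median of -0.97. The gene called higher was Fibin, with 614 and 2131 counts and a log2 ratio of 1.99. Those called lower were Clec3b at -2.36, Igfbp6 at -1.48, and Tppp3, Wif1 and Ptx4, the last 3 named after their values were seen. Ptx4 had 58 and 1 counts in the hip. With adjustment for length and GC content the calls of Igfbp6 (-0.75), Tppp3 (-0.84) and Wif1 (-0.75) ended. In the knee 1 was called higher, Ptx4, with 7 and 31 counts, and 1 lower, Col11a1, at -1.09. The call of Col11a1 ended with scaling by total counts, which added 0.18 to all knee ratios. Over the 3 lists together, 21 of 47 genes were called lower and 4 higher in the hip, against 16.3% and 20.2% of all genes, and 5 of 48 were called lower and 6 higher in the knee, near the 6.81% and 9.00% of all genes.

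**Figure D4:**
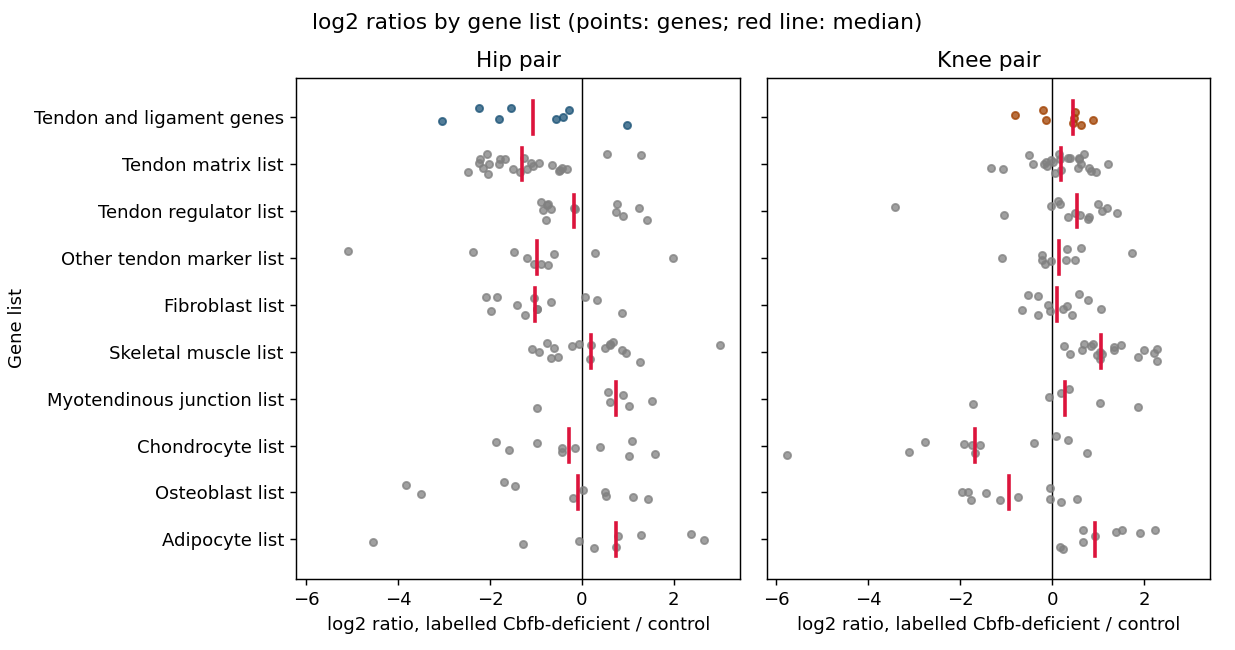
log2 ratio against the control of the same joint for the genes of each list in the hip pair and the knee pair (points, genes with at least 10 counts over the pair; red lines, medians). In the hip the tendon and ligament genes (-1.05), the tendon matrix list (-1.30) and the fibroblast list (-1.02) have medians near each other; in the knee the skeletal muscle list has the highest median shown (1.06).

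Markers of other tissue moved beside these genes. In the hip, where 16.3% of all genes were called lower and 20.2% higher, a list of 12 general fibroblast genes had 6 called lower and 0 higher, a median log2 ratio of -1.02, and summed levels of 2438 and 1018 CPM. Gsn gave 1457 and 683 CPM of these sums, and Sparc 665 and 164 CPM. By the interval alone 9 of the 12 were lower and 2 higher, beside 33.7% and 37.3% of all genes. When the hip ratios were shifted so that the median of the fibroblast list was 0, an alternative chosen after the data were seen, the log2 ratios were -2.02 for Kera, -1.22 for Tnmd, -0.79 for Col14a1 and -0.53 for Thbs4, and 2 of the 8 genes were called lower in place of 4. Mkx was then at 2.005 and was called higher. Under this shift 5.37% of all genes were called lower and 48.9% higher. In the hip the skeletal muscle list had 2 of 18 genes called higher and 1 lower, counts below the shares of all genes, with a median of 0.20, and none of its genes was at or under 3 counts in any library. In the knee its summed level went from 13140 to 29726 CPM, 11 of its 18 genes were called higher, beside 9.00% of all genes, and its median was 1.06. Thbs4, Col12a1, Col14a1 and Kera had positive ratios in that pair, and the part of muscle RNA in them was not tested. Genes of the myotendinous junction, 6 in all, had a median of 0.75 in the hip and 0.28 in the knee, and Col22a1, the collagen of that junction, had ratios of -0.98 and -0.07. Adipocyte genes, 9 in all, summed to 389 and 1243 CPM in the hip and to 694 and 1237 CPM in the knee. Plin4 alone gave 174 and 877 CPM of the hip sums, with 3 genes of the list called higher and 2, Plin1 at -1.28 and Lep at -4.55, lower, and a median of 0.75. The call of Plin1 ended at -0.87 when adjusted for length and GC content. Their part in the ratio of Tnmd, which fat also makes, was not tested. In the knee, 7 of 11 chondrocyte genes and 5 of 10 osteoblast genes were called lower, beside 6.81% of all genes, with medians of -1.68 and -0.94, and their part in the knee ratios was not tested either. In the hip the osteoblast list summed to 184 and 116 CPM and its median was -0.09, with 4 of 10 genes called lower and 2 higher. Those lower were Bglap (-3.50) and Bglap2 (-3.82), near-identical osteocalcin copies whose reads are hard to assign, Alpl (-1.69) and Sp7 (-1.44), and those higher were Spp1 (1.11) and Mepe (1.45), of which Bglap2, Alpl, Sp7 and Mepe were named after their values were seen. The calls of Sp7 and Spp1 ended at -0.98 and 0.81 when adjusted for length and GC content, and the part of bone cells in the hip ratios was not tested. Sox6, Hapln1, Matn1, Plin1 and Lep of the other lists were likewise named after their values were seen. In the hip the chondrocyte list had a median of -0.28, with 3 of 10 genes called higher and 2 lower, beside 20.2% and 16.3% of all genes. Of the genes called higher, Sox6 and Hapln1 lost their calls when adjusted for length and GC content, at 0.39 and -0.0045. Its sum there was 110 and 151 CPM, of which Sox6 alone gave 55.9 and 116 CPM, and Matn1 was at 3 counts or fewer in both libraries.

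For the remaining lists, superficial zone and synovial lining genes had medians of 0.62 in the hip and 0.59 in the knee, and erythroid genes of -0.62 and -0.40. Endothelial genes had medians of 0.01 and 0.22, and genes of Schwann cells and perineurium of -0.75 and 0.75. The erythroid list summed to 3759 and 1318 CPM in the hip, where 7 of 7 genes were lower by the interval, beside 33.7% of all genes. Of these, 2 were called lower, beside 16.3% of all genes. Adjusted for length and GC content, their hip ratios lay between -1.09 and 0.17, so not all stayed below 0. The part of blood in the hip falls of the 8 genes was not tested. It summed to 54684 CPM in the knee control and 25992 CPM in the knee library labelled Cbfb-deficient. Scx and Tnc were lower in that pair by their intervals (Tnc at 0.06 with scaling by total counts), and the part of blood in this was not tested.

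Ratios also moved with the length and base composition of transcripts over all genes. In the hip, the quintile of genes with the shortest transcripts had a median log2 ratio of -0.33 and the quintile with the longest had 0.54. Over GC content the hip medians went from 0.86 in the lowest quintile to -0.44 in the highest. Kera (40.8% GC) and Tnmd (43.6% GC) lay against the direction of the GC trend, and their falls were larger after adjustment for both length and GC content. Scx, with its GC-rich transcript, and Mkx, whose longest transcript has 7771 bases, lay along the trends. In the knee the medians went from -0.34 to 0.21 over length and stayed between -0.03 and 0.05 over GC content.

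**Figure D5:**
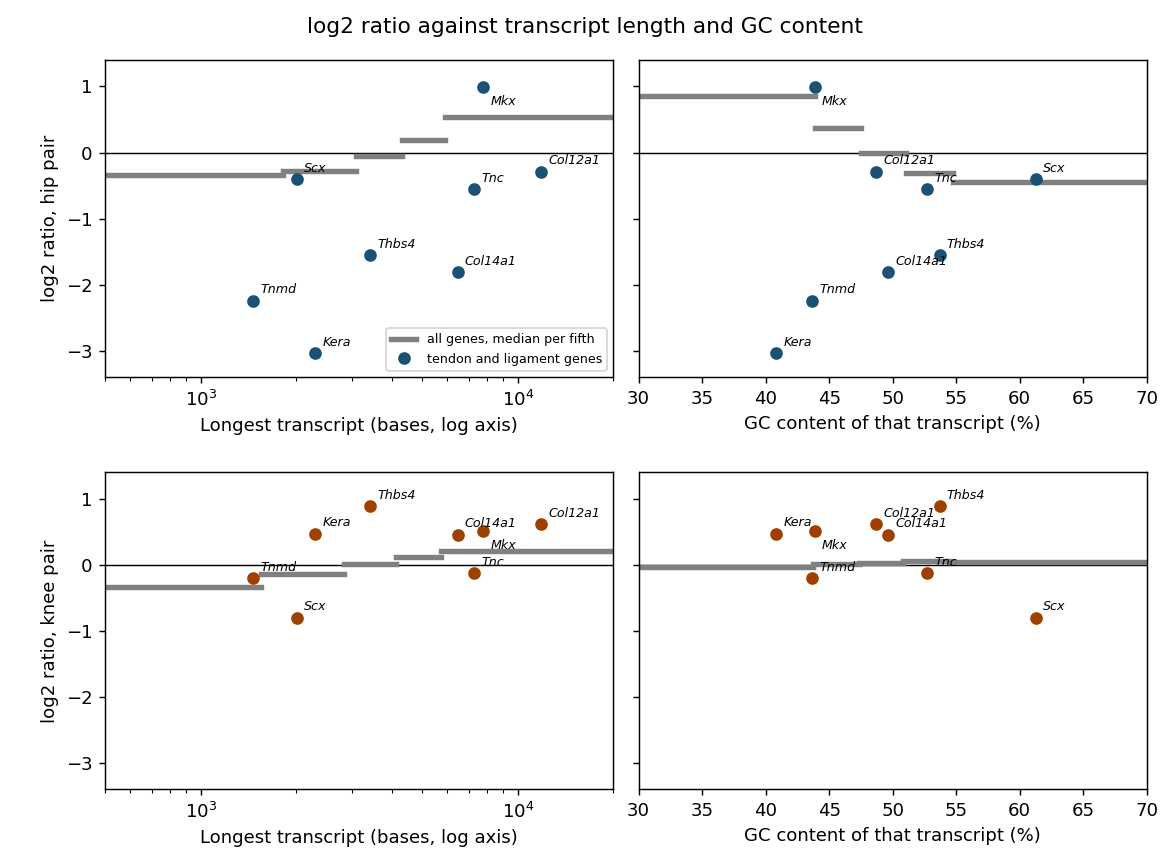
log2 ratio in the hip pair (upper panels) and the knee pair (lower panels) against the length of the longest transcript (bases, log axis) and its GC content (percent) for the 8 genes (points), with the median of all genes in each quintile (grey bars). In the hip, Kera and Tnmd lie far below the bar of their GC quintile, while Scx (-0.41) lies close to its bar (-0.44).

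The genes with the most similar pattern over the 4 libraries were sought among 13831 genes with at least 100 counts in their highest library, by the Euclidean distance between log2 CPM values centred on their mean. With 4 libraries from 2 unlike pairs of count tables, near neighbours arise easily and carry no statement on function. Nearest to Tnmd were Ndufs5, Gata3 and Rom1, at distances of 0.24, 0.24 and 0.27. Nearest to Thbs4 were Dact3, Sncg and Itga11 (0.20, 0.24 and 0.24), the last an integrin subunit that binds fibrillar collagen. Nearest to Kera were Sfmbt2, Dipk1b and Mfap4 (0.36, 0.41 and 0.45), and nearest to Col14a1 were Cygb, Ube2ql1 and Map3k7cl (0.20, 0.31 and 0.32). Closer matches were found for Mkx, with Snx11, Tnip2 and Bicd2 (0.02, 0.07 and 0.09), and for Tnc, with the cell division genes Kifc1 and Ccnf and the channel gene Kcnn4 (0.03, 0.04 and 0.15). Nearest to Scx were Rcan1, Mttp and Polr2c (0.16, 0.19 and 0.20), and nearest to Col12a1 were Vrk2, Apba1 and Lingo1 (0.11, 0.12 and 0.13). The median profile of the 8 genes was nearest to Tmem88, Snx33 and Steap3, at 0.15, 0.20 and 0.21.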

How the data were processed

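RNA of 4 samples was sequenced from poly-A libraries. The authors deposited counts, whole numbers of reads per Ensembl gene without normalization. By the paper's methods reads were aligned to GRCm39 with STAR, while the submitters' processing notes list mm10, FastQC 0.11.3 and STAR 2.0. The hip tables end in HTSeq summary lines, which held 25.8% and 24.6% of the listed reads and were left out. The program and annotation behind the knee tables are not given in the sources used here. Counts on genes ranged from 34264456 to 38473120, so 3 counts, taken as the floor, are 0.0780 to 0.0876 CPM. No sample of the series was left out.

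Identifiers were matched to GENCODE vM39 symbols, exons and transcripts on GRCm39 (91.8% of hip and 92.6% of knee identifiers). Of the listed genes, Col21a1 and Ahsp were not matched. Annotated genes that overlap a member share at most 6.65% of its exon bases (Mkx). Libraries were scaled within a joint by TMM (edgeR 4.0.16, R 4.3.3). DESeq2 1.42.0 gave alternative size factors, and its test, which the paper names, needs replicates. Poisson intervals for CPM and Clopper-Pearson intervals for ratios cover counting error only. Other steps used Python 3.11.15, numpy 2.4.6, pandas 2.3.3, scipy 1.17.1 and matplotlib 3.10.9. To adjust ratios for length and GC content, the median of each of 20 length bins was subtracted, then that of each of 20 GC bins, in 2 rounds. Other alternatives were scaling by total counts, TMM without muscle, erythroid and mitochondrial genes, 1 or 5 added to each count, no filter on low counts or at least 10 in each library, and a 1.5-fold or 4-fold rule. Centring on the fibroblast list was added after seeing the data.

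The members, lists, named genes and tests were chosen with earlier results of these data known. Named were the 8 members, their relatives with 10 counts or more over a pair, and from the other tendon lists the 3 largest called rises and falls (100 counts or more in the higher library) and the 3 highest levels per kb in each joint, besides up to 3 of the most abundant genes per cell type list and the 3 nearest genes per member. These computations were checked on simulated counts, with 200 genes changed 4-fold. The simulated counts held counting error only, with no variation between animals and no trend over length or GC content. The changed genes were drawn from those with higher expected counts. The values below are therefore not error rates of these data. For the hip pair (19910 genes) 200 were recovered and 0.903% of unchanged genes were called, and for the knee pair (21074 genes) the values were 200 and 0.714%.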

Additional observations from a re-analysis of the deposited data

Results flagged for a closer look

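For 3 of the 8 genes the ratios of the joints had opposite signs, 0 lay outside both counting intervals, and the change in the hip passed 2-fold. The share of all genes meeting these conditions together was not computed. Singly, 16.3% of all genes were called lower in the hip, and 31.9% were higher in the knee by the interval. Thbs4 had a log2 ratio of -1.55 in the hip pair and 0.89 in the knee pair. Kera had -3.03 in the hip and 0.47 in the knee, and Col14a1 had -1.81 and 0.46. The difference between joints was not tested, since each joint has 1 library per condition, and the joint cannot be told apart from the age, the Cre line, the control used or the count table.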

How the results depend on the processing

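No paired analysis was possible because each condition has 1 library in each joint and the labels give no replicate numbers, and no library could be left out. Counts of called genes here are for the 8 genes, then for the 3 wider lists (4 lower and 0 higher, then 21 and 4, in the hip; 0 and 0, then 5 and 6, in the knee). A 4-fold rule called 2 of the 8 and 9 of the wider lists lower and 0 of the wider lists higher in the hip (8.52% of all genes lower, 7.33% higher), and 1 of the wider lists lower and 0 higher in the knee (2.67% and 2.82%). A 1.5-fold rule called 4 of the 8 and 31 of the wider lists lower (23.5% of all genes) and 1 of the 8 and 7 of the wider lists higher in the hip (28.1%), and 1 of the 8 lower, 2 of the 8 higher and 17 of the wider lists higher in the knee (13.7% of all genes lower, 16.4% higher). Scaling by total counts moved all knee ratios by 0.18, with 1 of the 8 called higher and 2 of the wider lists lower (12.3% of all genes higher, 4.96% lower). Centred on the fibroblast list, a choice made after seeing the data, 2 of the 8 were called lower and 1 higher in the hip, with 9 of the wider lists lower and 9 higher, where 5.37% of all genes were called lower and 48.9% higher. With at least 10 counts in each library, 1435 hip genes were called lower in place of 3234, and 811 knee genes lower and 1202 higher in place of 1440 and 1902. That centring moved all hip ratios by 1.02. The summed level of the 8 had a log2 ratio of -1.15 in the hip, which was -1.21 with DESeq2 size factors, -1.10 adjusted for length and GC content and -0.13 centred on the fibroblast list. In the knee it was 0.21, and 0.39 with total counts, -0.010 (within counting error) with that adjustment and 0.11 centred on the fibroblast list. Over all genes, the share of called genes that were higher was 55.4% in the hip and 46.2 to 90.1% under the alternatives, and 56.9% in the knee and 47.7 to 71.3%. None of the 4 genes called in the hip changed sign in the hip pair under any alternative run. The rules on fold and on low counts leave the ratio of a gene unchanged, so those alternatives could not change a sign.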
